A study of Mus musculus with 2 samples.

Results

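Xcl1, Ccl3, Ccl4, Ccl5 and Ccl1, which encode chemokines released by lymphocytes, were followed together with Xcr1 and Ccr8, which encode receptors for the first and the last of them. These 7 genes were taken by symbol from the 32285 genes listed in each of 2 droplet single-cell RNA libraries. The cells were leukocytes, sorted by their CD45 from tumors that the melanoma line B16-F10 had formed in mice. One library came from mice of genotype WT given DOPAC (3,4-dihydroxyphenylacetic acid, which arises when dopamine is broken down), and the other from WT mice given vehicle (Control). The design text names 4 mice in each group, but the cells carry no mouse tag, so each group was 1 sample. The labels give no dose, time, age or sex. Colon is the tissue in the labels' protocol, whereas the tissue label and the design name tumors, which was followed here.

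Chemokines are small secreted proteins that steer leukocytes along gradients through receptors coupled to G proteins. XCL1 is made by activated NK cells and CD8 T cells, and its receptor XCR1 marks the cross-presenting type 1 conventional dendritic cells (cDC1). CCL3, CCL4 and CCL5 are made by both lymphocytes and myeloid cells, and CCL3 and CCL5 bind CCR1. CCL1 is a product of activated T cells, and its receptor CCR8 is found on regulatory T cells in tumors.

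In GRCm38 coordinates of the GENCODE vM21 annotation, Ccl3, Ccl4 and Ccl5 lie close together on chromosome 11. Ccl3 spans chr11:83647844-83649355 on the minus strand, Ccl4 chr11:83662584-83664683 on the plus strand and Ccl5 chr11:83525778-83530518 on the minus strand. Ccl1 lies apart on the same chromosome, at chr11:82176657-82305690 on the minus strand. Xcl1 spans chr1:164931644-164935527 on the minus strand, where Gm20743 overlaps its exons on the other strand. Xcr1 spans chr9:123852315-123862029 on the minus strand, and Ccr8 spans chr9:120092114-120094906 on the plus strand. Whether counting used strand is not given in the sources used here, so reads of Xcl1 and Gm20743 may not be separable; in NK cells Gm20743 had 9 UMIs in the DOPAC library and 30 in the Control library, against 1836 and 6288 of Xcl1.

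The promoters of Xcl1, Ccl3 and Ccl1 are shown because the CD8 T results below turn on these 3 genes, and to show which of the motif letters searched each of them holds. Each is the RefSeq sequence of GRCm38.p6 from 250 to 11 bases before the gene start, read 5′ to 3′ on the gene's strand. Capitals mark matches, on either strand, to GGAAA (the NFAT core), TGTGGT (RUNX) and GGTGTGA (T-box); TGANTCA (AP-1) and TGACGTCA (CRE) were searched too and had no match here. The Xcl1 stretch is chr1:164935533-164935772, of which 33 bases lie in an exon of Gm20743, the Ccl3 stretch is chr11:83649389-83649628 and the Ccl1 stretch is chr11:82179823-82180062, inside the longer GENCODE span of Ccl1.
Xcl1: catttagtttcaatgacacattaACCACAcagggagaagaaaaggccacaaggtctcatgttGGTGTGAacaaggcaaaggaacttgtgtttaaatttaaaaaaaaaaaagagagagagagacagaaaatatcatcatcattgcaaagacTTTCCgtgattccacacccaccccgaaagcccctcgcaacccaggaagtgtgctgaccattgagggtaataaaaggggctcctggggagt
Ccl3: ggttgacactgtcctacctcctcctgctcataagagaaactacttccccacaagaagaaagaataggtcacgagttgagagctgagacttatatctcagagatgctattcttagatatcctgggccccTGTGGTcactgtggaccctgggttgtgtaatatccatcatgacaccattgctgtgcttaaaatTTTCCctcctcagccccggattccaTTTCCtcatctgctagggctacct
Ccl1: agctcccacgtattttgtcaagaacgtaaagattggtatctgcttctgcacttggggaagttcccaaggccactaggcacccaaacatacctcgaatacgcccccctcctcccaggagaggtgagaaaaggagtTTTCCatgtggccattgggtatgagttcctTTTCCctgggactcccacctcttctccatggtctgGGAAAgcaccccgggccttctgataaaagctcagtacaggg

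GGAAA occurred once in the Xcl1 stretch, 2 times in Ccl3 and 3 times in Ccl1. The motif is common, since 54.1% of the 27025 promoters of this length held it. TGTGGT occurred once each in Xcl1 and Ccl3 (13.7% of promoters held it), and GGTGTGA occurred once, in Xcl1 (3.19% of promoters). TGANTCA was held by 6.69% of promoters and TGACGTCA by 1.5%. Of the members, 5 of 7 had a RefSeq promoter entry; the Xcr1 stretch held GGAAA once and the Ccr8 stretch held none of the motifs. No match overlapped another, and a match is a run of letters, not a bound site.

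After filtering, 9280 cells with 41613885 UMIs were kept in the DOPAC library and 8105 cells with 91632302 UMIs in the Control library, with medians of 3592 and 9320 UMIs per cell. UMIs, which mark single captured transcripts, are given as CPM, the usual scaling of a gene's UMIs to a common total, here the UMIs summed over the cells of a class. Ptprc, which encodes CD45, had a UMI in 95.1% of the DOPAC cells and 97.3% of the Control cells. Cells were assigned to classes by marker UMIs that include none of the 7 members, and the markers defined the class, so their levels are a check only. CD8 T cells were 3291 in the DOPAC library and 690 in the Control library, NK cells 873 and 863, monocytes and macrophages 1249 and 2457, cDC1 79 and 260, type 2 conventional dendritic cells (cDC2) 82 and 331, mature dendritic cells 106 and 273, plasmacytoid dendritic cells 63 and 417 and regulatory T cells 62 and 89. The 4 T-cell receptor complex genes summed to 2356 CPM in DOPAC and 1797 CPM in Control CD8 T cells, against 94.5 and 57.5 CPM in NK cells. All 4 cDC1 markers were found in both libraries' cDC1, with Clec9a, a receptor for dead cells, at 458 CPM in DOPAC and 214 CPM in Control cells. No class was given to 2439 DOPAC cells (26.3%) and 1221 Control cells (15.1%); 32 barcodes occurred in both libraries, 24 of them among kept cells. All intervals are 95% intervals for the error of counting alone. Since each treatment was 1 library, differences could not be set against replicates and none was tested, so "higher" and "lower" set these 2 libraries side by side.

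Xcl1 RNA was highest in NK cells in both libraries and was lower in NK cells of the DOPAC library. It reached 643 CPM (614 to 673) in DOPAC NK cells, against 1123 CPM (1096 to 1152) in Control NK cells, a ratio of 0.572 (0.543 to 0.603). At least 1 Xcl1 UMI was seen in 54.3% of DOPAC and 83.2% of Control NK cells, whose median depths were 2664 and 5904 UMIs. After each cell was thinned to 1000 UMIs the shares were 30.7% (27.6 to 33.9) and 49.5% (46.1 to 52.9), so the DOPAC share remained the lower one at equal depth. Of the gate's own markers Ncr1 (106 CPM in DOPAC, 157 CPM in Control) and Klrb1c (228 and 374.5 CPM) were also lower in DOPAC NK cells. Klra4 (721.5 and 675 CPM) and Klra8 (732 and 661 CPM) were higher. B cells, which should lack Xcl1, had a thinned share of 4.0% in the DOPAC library, which is 1 UMI-bearing cell of 25, and 0.954% in the Control library. Their median depths were 1542.5 and 4286.5 UMIs.

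In CD8 T cells as a whole, the Xcl1 difference between the libraries depended on how the class was read. The level was 240 CPM in DOPAC and 283 CPM in Control CD8 T cells, a ratio of 0.847 (0.801 to 0.896), and the thinned shares were 7.03% and 7.11%. Its sub-classes differed in opposite directions and were mixed in different parts in the 2 libraries. Cells with a UMI of Pdcd1 or Havcr2, the inhibitory receptors PD-1 and TIM-3, are called checkpoint-type here and were 73.4% of DOPAC and 23.8% of Control CD8 T cells. Cells with a UMI of a short list of naive-cell genes but none of Pdcd1, Havcr2 or the granzyme gene Gzmb are called naive-type and were 3.80% of DOPAC and 60.3% of Control CD8 T cells. Xcl1 stood at 250 CPM in DOPAC and 670 CPM in Control checkpoint-type cells, with thinned shares of 6.56% and 12.8%. The 10 highest of 164 Control checkpoint-type cells held 75.7% of these UMIs, and the 10 highest of 2416 DOPAC ones 50.8%. Without cells with a Ccl1 UMI the checkpoint-type levels were 182.5 CPM in DOPAC and 341.5 CPM in Control. In naive-type cells Xcl1 stood at 309 CPM in DOPAC and 74.4 CPM in Control. The DOPAC naive-type value rests on 135 UMIs in 125 cells, of which 10 cells held 81.5%. In the other CD8 T cells Xcl1 was 174 CPM in DOPAC and 206 CPM in Control. Without naive-type cells the log2 ratio of the class was -1.12, against -0.24 with them, and with gates read on thinned cells it was -0.94.

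**Figure D1:**
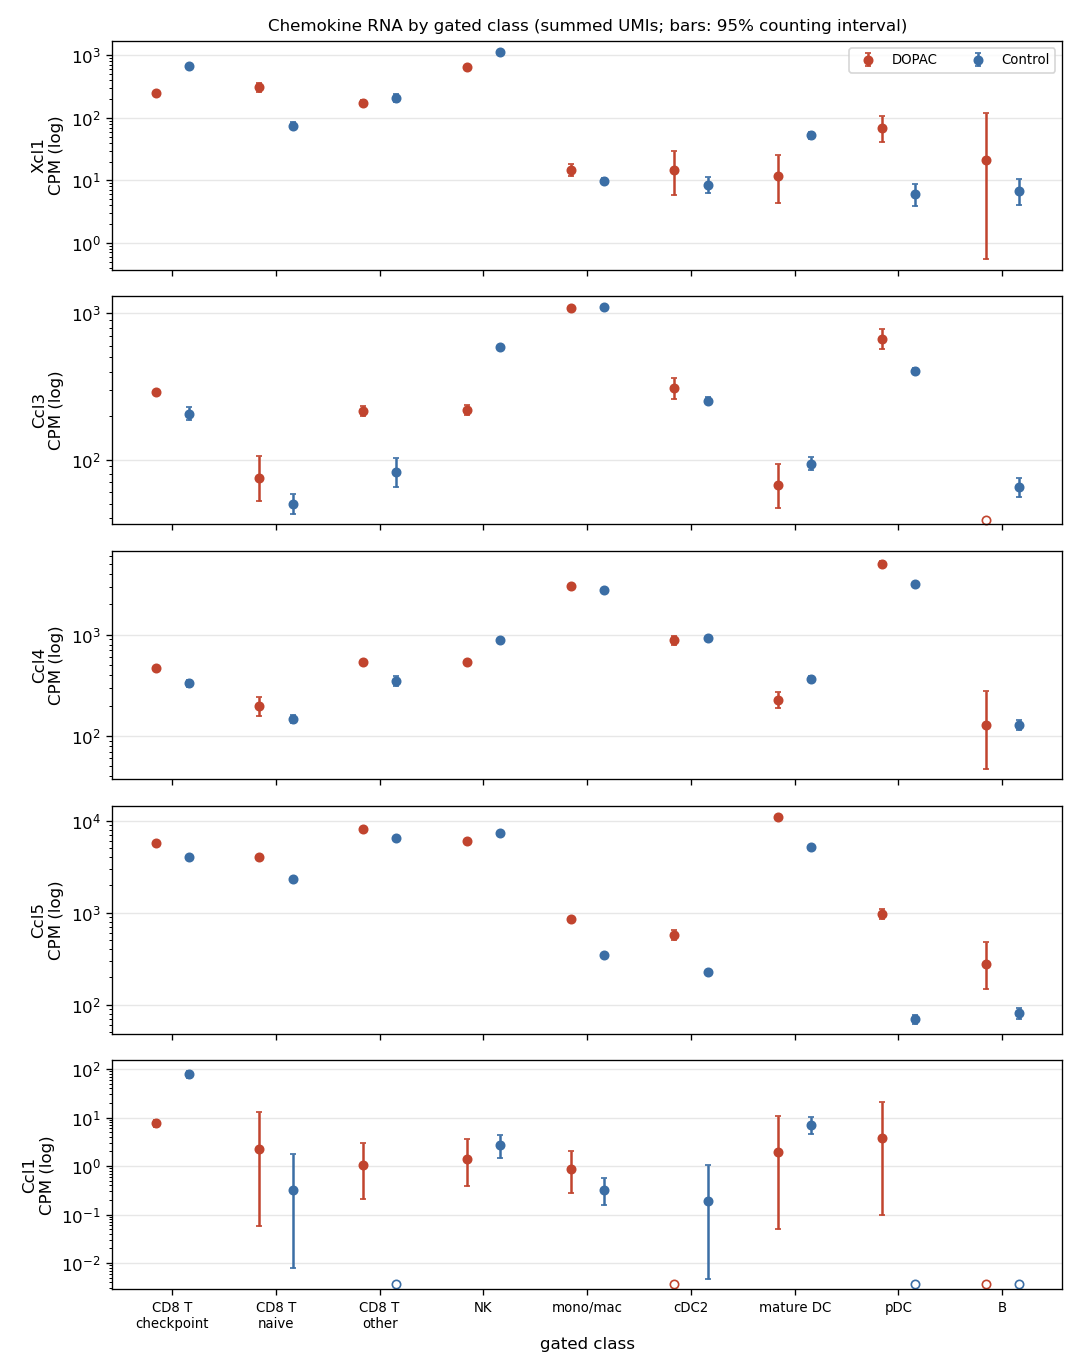
Level of each chemokine in CPM (log axis) by cell class, with DOPAC left of Control and bars for the 95% counting interval; open circles at the bottom edge stand for 0 UMIs. Among the classes plotted, which leave out neutrophils, Xcl1 was highest in NK cells of both libraries (643 CPM in DOPAC, 1123 CPM in Control), Ccl4 in plasmacytoid dendritic cells and monocytes and macrophages, and Ccl5 in mature dendritic, NK and CD8 T cells.

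Xcl1 RNA was gathered in far fewer cells among CD8 T cells than among NK cells. The 10% of CD8 T cells with the most Xcl1 UMIs held 94.2% of the class's Xcl1 in the DOPAC library and 92.5% in the Control library. The same share of NK cells held 58.2% in DOPAC and 43.6% in Control. One DOPAC CD8 T cell held 605 Xcl1 UMIs of its 15982 UMIs, together with 205 Ccl3 UMIs and no Ccl1 UMI. The highest Control CD8 T cell held 196 Xcl1 UMIs of its 11548, with 23 of Ccl1. Without these single cells the CD8 T levels were 209 CPM in DOPAC and 251 CPM in Control.

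**Figure D2:**
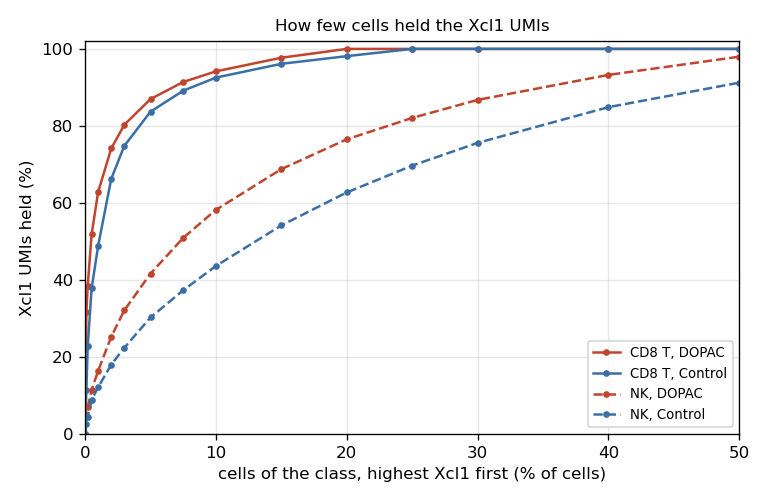
Cumulative percentage of Xcl1 UMIs (vertical axis) against the percentage of cells ranked by their Xcl1 UMIs (horizontal axis), for CD8 T cells (solid lines) and NK cells (dashed lines) of each library. The first 1% of CD8 T cells held 62.9% of Xcl1 UMIs in DOPAC and 48.9% in Control, against 16.4% and 12.2% for the first 1% of NK cells.

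Outside NK and CD8 T cells, Xcl1 was clear only in other T cells, at 218 CPM in DOPAC and 301 CPM in Control. In the DOPAC library the order ran from NK cells over CD8 T and other T cells to CD4 T cells (82.4 CPM) and plasmacytoid dendritic cells (69.0 CPM), and neither the intervals of CD8 T and other T cells nor those of CD4 T and plasmacytoid dendritic cells were separate. In the Control library NK cells were followed by other T cells and CD8 T cells, whose intervals overlapped, and by mature dendritic cells (52.6 CPM). Single cells carried the dendritic values. In Control mature dendritic cells 174 of 209 Xcl1 UMIs came from 1 cell, which held 28 UMIs of the mature dendritic list, 27 Ccl1 UMIs and no UMI of the T list, and without the highest cell the level was 9.89 CPM in DOPAC and 8.87 CPM in Control. Of 18 UMIs in DOPAC plasmacytoid dendritic cells 10 came from 1 cell, and without the highest cell that class stood at 31.7 CPM in DOPAC and 5.54 CPM in Control. In monocytes and macrophages the thinned shares were 1.55% in DOPAC and 0.777% in Control, at or below those of B cells, and were read as background.

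Ccl3 and Ccl4 encode the chemokines also called MIP-1α and MIP-1β. Both were high in neutrophils, monocytes and macrophages and plasmacytoid dendritic cells, and both were higher in CD8 T cells and lower in NK cells of the DOPAC library than in those of the Control library. Ccl3 stood at 272 CPM in DOPAC and 104 CPM in Control CD8 T cells (ratio 2.61, 2.40 to 2.84), with thinned shares of 14.9% and 6.68%. Ccl4 stood at 472 CPM in DOPAC and 236 CPM in Control CD8 T cells (ratio 2.0, 1.89 to 2.11), with thinned shares of 28.9% and 14.9%. Unthinned, a Ccl4 UMI was found in 66.2% of DOPAC CD8 T cells at a median depth of 4865 UMIs and in 63.9% of Control CD8 T cells at 7534 UMIs. In B cells the thinned share with Ccl4 was 4.0% in DOPAC and 12.2% (9.78 to 15.1) in Control. The interval of the Control CD8 T share (12.4 to 17.8) overlapped that of Control B cells. Single Control B cells held up to 21 Ccl4 and 23 Ccl3 UMIs. B cells may therefore not be a background class for these 2 genes, which was not tested. For Ccl3 the B-cell share was 0 of 25 thinned DOPAC cells, which by a limit of 3 counts allows a share of up to 12.0% (exact 95% limit 13.7%). In Control B cells it was 4.77% (3.24 to 6.74), which the Control CD8 T interval (4.93 to 8.805) overlapped.

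The CD8 T difference in these genes was smaller once naive-type cells were set apart. Within checkpoint-type cells Ccl3 was 288 CPM in DOPAC and 206 CPM in Control, and Ccl4 was 467 CPM in DOPAC and 331 CPM in Control. The Control Ccl3 value leaned on few cells, since the 10 highest of 164 held 67.7% of its 393 UMIs. Without cells with a Ccl1 UMI, checkpoint-type Ccl3 stood at 274.5 CPM in DOPAC and 76.8 CPM in Control. Ccl4 then stood at 460 CPM in DOPAC and 298.5 CPM in Control. Without naive-type cells, the log2 ratio (DOPAC over Control) came to 0.74 for Ccl3 and 0.50 for Ccl4, against 1.38 and 1.00 in all CD8 T cells. In naive-type cells Ccl4 stood at 197 CPM in DOPAC and 146 CPM in Control, with thinned shares of 13.8% and 10.6% that were near the Control B-cell share. Checkpoint-type cells held 87.5% of the CD8 T cells' Ccl3 UMIs and 81.8% of their Ccl4 UMIs in the DOPAC library, against 62.6% and 44.4% in the Control library. Of the CD8 T UMIs of all genes they held 15946216 of 19289675 in DOPAC and 1905020 of 6016451 in Control. The DOPAC Ccl4 share was therefore no enrichment, with 467 CPM in checkpoint-type and 472 CPM in all CD8 T cells.

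NK cells differed the other way. Ccl3 was 220 CPM in DOPAC and 587.5 CPM in Control NK cells (ratio 0.375, 0.344 to 0.408), and its thinned shares were 16.8% and 33.9%. Ccl4 was 538 CPM in DOPAC and 897 CPM in Control NK cells (ratio 0.599, 0.566 to 0.635), with thinned shares of 33.9% and 42.3%. As a result the Ccl3 level of CD8 T cells was above that of NK cells in the DOPAC library and below it in the Control library. Neither pair of level intervals overlapped. However, 10 DOPAC CD8 T cells held 23.0% of the class's Ccl3 UMIs, with 302 in 1 cell, against 17.65% in 10 DOPAC NK cells. The DOPAC thinned shares did not place CD8 T cells higher. They were 14.9% (13.7 to 16.15) in CD8 T cells and 16.8% (14.4 to 19.5) in NK cells.

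In monocytes and macrophages the 2 genes were much alike between the libraries. Ccl3 was 1087 CPM in DOPAC and 1106 CPM in Control cells (ratio 0.983, 0.957 to 1.01), and Ccl4 was 3059 CPM and 2792 CPM. Within them, cells with more Ly6c2, Ccr2, Chil3 and Plac8 UMIs than C1q and Apoe UMIs (monocyte-type) had 2845 CPM of Ccl4 in DOPAC and 2987 CPM in Control, while those with more C1q and Apoe (C1q-type) had 3604 CPM in DOPAC and 2646 CPM in Control. Plasmacytoid dendritic cells, known for type I interferon, had 5053 CPM of Ccl4 in DOPAC and 3168 CPM in Control, and 671 and 406.5 CPM of Ccl3. Neutrophils had the highest Ccl3 of any class, 6618 CPM in 15 DOPAC cells and 6244 CPM in 45 Control cells, with overlapping intervals. The order of Ccl3 below them was monocytes and macrophages, plasmacytoid dendritic cells, cDC2 and CD8 T cells in the DOPAC library, where the last 2 overlapped, and monocytes and macrophages, NK cells, plasmacytoid dendritic cells and cDC2 in the Control library, with no overlap. In Ccl4 the DOPAC order began with plasmacytoid dendritic cells, ahead of monocytes and macrophages and neutrophils, which overlapped; in the Control library neutrophils and plasmacytoid dendritic cells overlapped at the top and monocytes and macrophages came next.

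Ccl5, known as RANTES and as a late product of effector lymphocytes, was the most widespread member and was higher in the DOPAC library in most classes except NK cells. It stood at 5996 CPM in DOPAC and 3552 CPM in Control CD8 T cells (ratio 1.69, 1.66 to 1.71), with thinned shares of 89.3% and 61.2%. In NK cells it was 6044 CPM in DOPAC and 7331 CPM in Control (ratio 0.824, 0.810 to 0.839), with thinned shares of 85.6% and 92.6%. The NK difference was -0.28 on the log2 scale and -0.0064 when levels were read from thinned cells. Within CD8 T cells Ccl5 was higher in the DOPAC library in checkpoint-type cells (5660 and 4086 CPM), in naive-type cells (4082 and 2353 CPM) and in the others (8126 and 6568 CPM). Without naive-type cells the log2 ratio in CD8 T cells was 0.30, against 0.76 with them.

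Mature dendritic cells, which carry antigen to lymph nodes, had more Ccl5 than any other class in the DOPAC library, 10950.0 CPM there against 5246 CPM in the Control library, where NK cells stood above them. Monocytes and macrophages had 849 CPM in DOPAC and 347 CPM in Control, and their thinned shares were 43.5% and 22.1%. Ccl5 was also higher in the classes read here as background. B cells had 279 CPM in DOPAC, from 13 UMIs, and 80.5 CPM in Control, with thinned shares of 32.0% (8 of 25 cells) and 6.36%. The melanoma class had 298 CPM in DOPAC and 81.1 CPM in Control, and cDC1 had 265.5 and 82.7 CPM. All 4 genes of the T list were detected in these myeloid classes too, summing to 84.7 CPM in DOPAC and 18.6 CPM in Control monocytes and macrophages and to 55.7 and 17.1 CPM in cDC1. In cDC1 the thinned shares were 25.3% in DOPAC and 8.85% in Control, which overlapped those of B cells in their intervals, and the Ccl5 of cDC1 was read as background. In monocytes and macrophages the level was above that of B cells in both libraries, and the share was above it in the Control library, while the DOPAC share lay within the wide interval of the 25 DOPAC B cells (14.9% to 53.5%). What part T-cell RNA had in these myeloid values was not tested. In plasmacytoid dendritic cells Ccl5 was 970 CPM in DOPAC and 69.6 CPM in Control, but 10 of the 63 DOPAC cells held 74.3% of it, and the T list summed to 184 CPM in DOPAC and 23.0 CPM in Control cells of that class, with all 4 genes detected in both; its part in the result was not tested.

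Ccl1 was rare and lay mostly in T cells. In CD8 T cells it had 125 UMIs in 50 DOPAC cells and 150 UMIs in 16 Control cells, or 6.48 CPM and 24.9 CPM (ratio 0.260, 0.203 to 0.332). The log2 ratio of -1.94 was -0.97 with thinned levels, from 16 DOPAC and 6 Control UMIs, and -3.00 without naive-type cells. Nearly all of it was in checkpoint-type cells, which held 96.8% of the DOPAC and 99.3% of the Control UMIs, at 7.59 and 78.2 CPM. The Control value leaned on few cells, since 1 of them held 52 UMIs and the CD8 T level without the highest cell was 5.76 CPM in DOPAC and 16.4 CPM in Control. In CD4 T cells the DOPAC library had 57 UMIs in 3 cells, 34 of them in 1 cell, and the Control library 0 in 169 cells. Regulatory T cells, cDC1 and B cells had no Ccl1 UMI in either library.

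CD8 T cells with a Ccl1 UMI were also rich in Xcl1. The 50 DOPAC cells held 1196 of the 4631 Xcl1 UMIs of CD8 T cells, at 2469 CPM, and the 16 Control cells held 761 of 1705, at 1859 CPM. These cells were deep, with medians of 7908.5 UMIs in DOPAC and 20652.5 UMIs in Control. Without them Xcl1 stood at 183 CPM in DOPAC and 168 CPM in Control CD8 T cells, a log2 ratio of 0.12 against -0.24 with them. In the Ccl1-bearing cells Ccl3 was 722 CPM in DOPAC and 676.5 CPM in Control, Ccl4 652 and 447 CPM, and Ccl5 2803 and 528 CPM. Without them Ccl3 stood at 261 CPM in DOPAC and 62.6 CPM in Control CD8 T cells. Csf2, which encodes the growth factor GM-CSF, had 4 UMIs in the DOPAC cells and 64 UMIs in the Control cells, and Ifng, the gene of interferon-γ, had 415 and 244 CPM.

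Xcr1, the XCL1 receptor, marked cDC1 in both libraries although it was not used to gate them. It stood at 333 CPM (291 to 378, 233 UMIs) in DOPAC cDC1 and 151 CPM (141 to 162, 833 UMIs) in Control cDC1, a ratio of 2.20 (1.89 to 2.55). A UMI was found in 72.2% of the 79 DOPAC cells and 78.5% of the 260 Control cells, at median depths of 8527 and 19974.5 UMIs. At 1000 UMIs per cell the shares were 16.5% (9.06 to 26.5) and 15.8% (11.6 to 20.8), which do not set the libraries apart. The log2 ratio of 1.14 shrank to 0.41 from thinned levels (18 DOPAC and 46 Control UMIs) and to 0.17 when the classes were gated on thinned cells (10 and 57 UMIs). Of the gate's own markers Clec9a, as given above, and Tlr3 (117 CPM in DOPAC, 46.5 CPM in Control) were also higher in DOPAC cDC1, while Snx22 (24.3 and 31.4 CPM) and Gcsam (62.8 and 74.1 CPM) were lower.

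**Figure D3:**
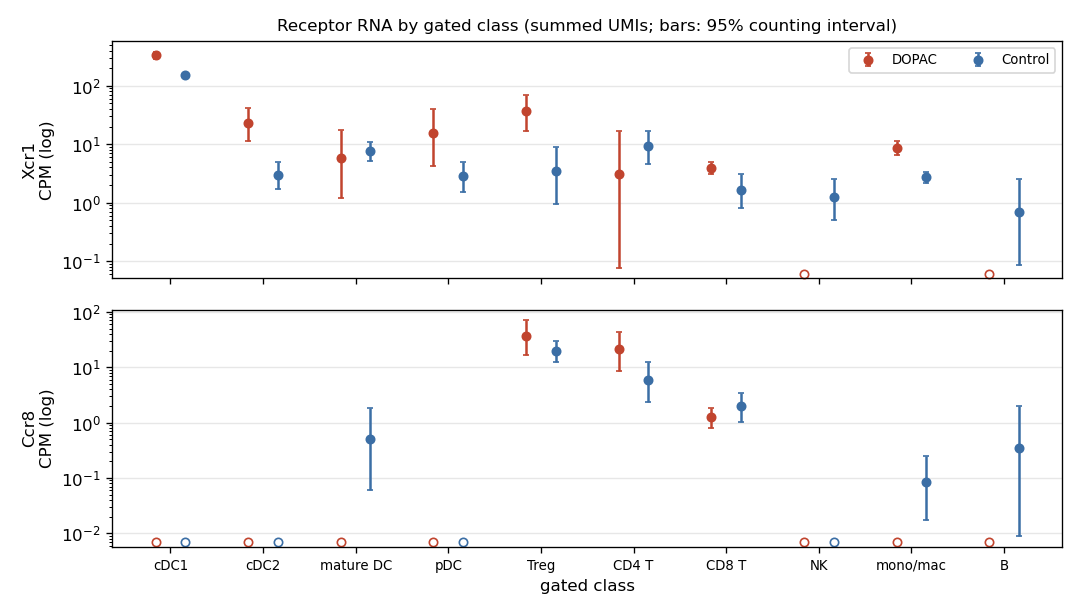
Levels of Xcr1 and Ccr8 in CPM (log axis) by cell class, DOPAC left of Control, with 95% counting intervals; open circles stand for 0 UMIs. Xcr1 was highest in cDC1 (333 CPM in DOPAC, 151 CPM in Control) and Ccr8 in regulatory T cells (37.1 CPM in DOPAC, 19.5 CPM in Control).

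In the Control library the class after cDC1 was CD4 T cells, at 9.30 CPM from 11 UMIs, 9 of them in 1 cell, and in the DOPAC library it was regulatory T cells, at 37.1 CPM. All 9 of those regulatory T UMIs came from 1 cell with 12 T-list and 4 cDC1-list UMIs, and without it the class had no Xcr1 UMI. cDC2 had 22.8 CPM in DOPAC and 3.03 CPM in Control, and monocytes and macrophages had 8.75 and 2.71 CPM. CD8 T cells had 3.94 CPM in DOPAC and 1.66 CPM in Control. Below cDC1 the DOPAC intervals of neighbouring classes overlapped. NK cells had no Xcr1 UMI in 873 DOPAC cells and 7 UMIs in 863 Control cells.

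Ccr8, the CCL1 receptor, was highest in regulatory T cells and then in CD4 T cells in both libraries. Regulatory T cells had 37.1 CPM in DOPAC (9 UMIs in 8 of 62 cells) and 19.5 CPM in Control (22 UMIs in 15 of 89 cells). The ratio of 1.90 had an interval from 0.772 to 4.30, so no difference was detectable at this depth, and its log2 value of 1.02 turned to -0.063 with thinned levels. CD4 T cells had 7 UMIs in each library, or 21.4 CPM in DOPAC and 5.92 CPM in Control (ratio 3.61, 1.08 to 12.0). The intervals of these 2 classes overlapped in the DOPAC library and, at 2.38 to 12.2 CPM against 12.2 to 29.5 CPM, met in the Control library. Other T cells had 4.58 CPM in DOPAC and 4.26 CPM in Control, and CD8 T cells had 1.24 and 2.0 CPM. Neither NK cells nor cDC1, cDC2 or plasmacytoid dendritic cells had a Ccr8 UMI; at 1000 UMIs per cell, the 0 in NK cells allows by the same limit of 3 counts a share of up to 0.348% of DOPAC cells (exact 95% limit 0.427%).

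The class that held the largest part of the RNA was not the same in the 2 libraries for Xcl1 and Ccl5, and was the same for Ccl3, Ccl4 and Ccl1. CD8 T cells held 49.8% of all Xcl1 UMIs in the DOPAC library and 13.4% in the Control library, while NK cells held 19.8% and 49.3%. For Ccl5 the CD8 T share was 60.9% in DOPAC and 16.01% in Control, and the NK share 9.10% and 30.7%. Monocytes and macrophages held the most Ccl3, 36.4% in DOPAC and 70.4% in Control, and the most Ccl4, 42.7% and 67.9%. These shares carry the numbers of cells per class, and CD8 T cells made up 35.5% of kept DOPAC cells and 8.51% of kept Control cells, so that they do not show a level per cell. Unassigned cells held 22.1% of DOPAC and 20.9% of Control Xcl1 UMIs. cDC1 held 36.6% of DOPAC and 59.4% of Control Xcr1 UMIs, and unassigned cells 38.5% and 27.0%.

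**Figure D4:**
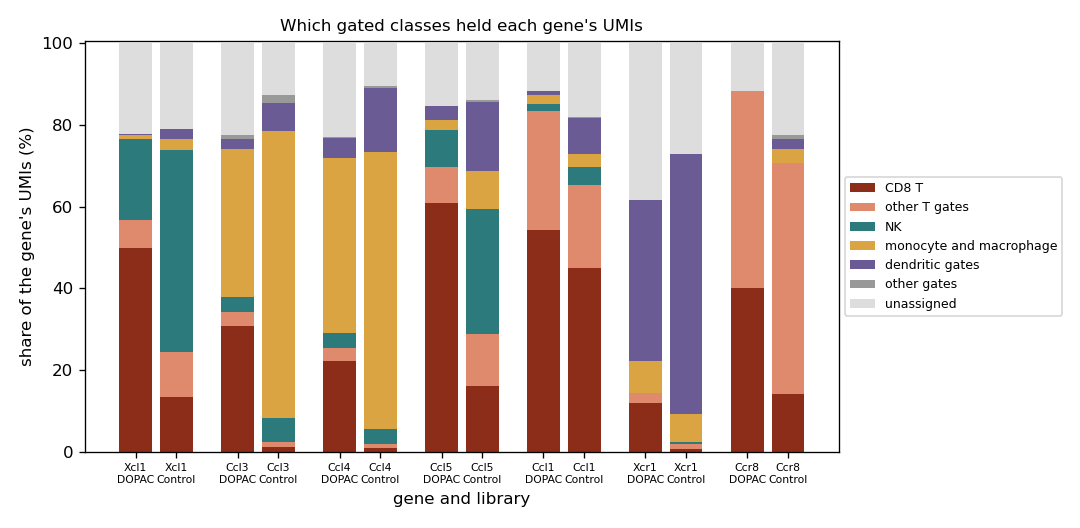
Percentage of each gene's UMIs (vertical axis, stacked) held by each cell class, with the DOPAC library left of the Control library for each of the 7 genes. CD8 T cells held 49.8% of Xcl1 and 60.9% of Ccl5 UMIs in DOPAC, against 13.4% and 16.01% in Control.

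Ccl3 and Ccl4 were found together in the same cells, whereas Xcl1 was found with or without them in NK cells. Among NK cells thinned to 1000 UMIs, a Ccl4 UMI was found in 58.6% of DOPAC cells with Ccl3 and 29.0% of those without, and in 58.9% and 33.9% of Control cells. The same held in monocytes and macrophages, at 84.6% with and 56.0% without Ccl3 in DOPAC, and 79.3% and 53.0% in Control. Xcl1 was found in 30.4% of DOPAC NK cells with Ccl4 and 30.9% of those without, and in 47.9% and 50.7% of Control NK cells. In CD8 T cells Ccl3 was found in 25.6% of DOPAC cells with Xcl1 and 14.1% of those without, against 12.2% and 6.25% of Control cells. Ccl5 was found in 76.1% of DOPAC CD8 T cells with Xcl1 and 90.3% of those without, and in 65.3% and 60.9% of Control ones. For both genes the intervals of Control CD8 T cells with Xcl1 (49 cells) and without it overlapped. In checkpoint-type cells Ccl5 was in 71.5% of DOPAC cells with Xcl1 and 90.0% without, and in 47.6% and 77.6% of Control ones. Ccl3 was in 31.0% and 13.6% of DOPAC checkpoint-type cells, and in 4.76% and 10.5% of Control ones. Only 21 Control checkpoint-type cells had Xcl1, and their intervals overlapped those of cells without it.

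**Figure D5:**
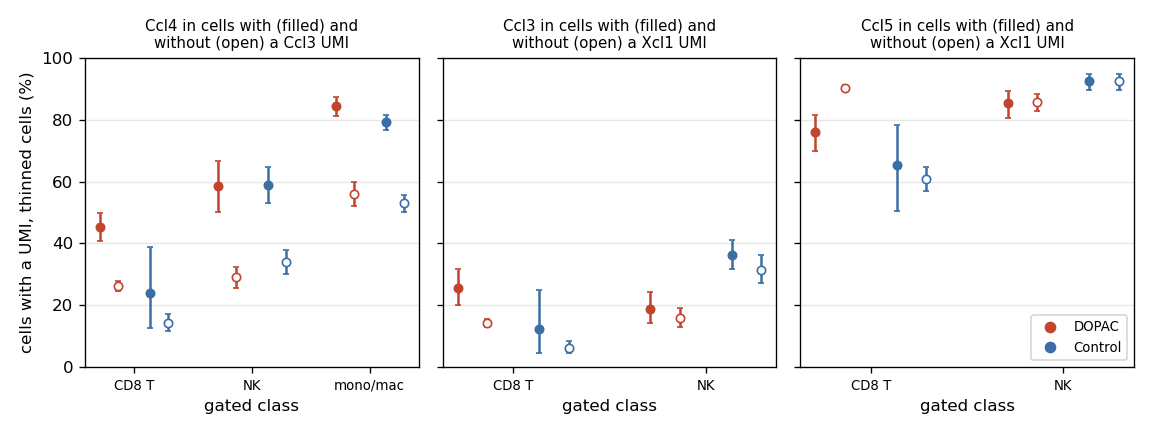
Percentage of cells with a UMI of the second gene (vertical axis) among cells with (filled) and without (open) a UMI of the first, in cells thinned to 1000 UMIs, for Ccl4 by Ccl3, Ccl3 by Xcl1 and Ccl5 by Xcl1, with DOPAC left of Control and 95% counting intervals. In NK cells Ccl4 was found in 58.6% of DOPAC cells with Ccl3 and 29.0% without, against 58.9% and 33.9% in Control.

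Counts of members at least 1.5-fold apart were read against all genes that had 20 or more UMIs over both sums. In CD8 T cells 4 of 7 members were higher in DOPAC (Ccl3, Ccl4, Ccl5 and Xcr1), where 17.8% of all genes were, and 2 were lower (Ccl1 and Ccr8), where 22.1% were. In checkpoint-type cells none of 7 was higher (12.3% of all genes) and 3 were lower (Xcl1, Ccl1 and Ccr8; 23.9%). In NK cells none of 4 was higher (11.3%) and 3 were lower (Xcl1, Ccl3 and Ccl4; 17.9%). In monocytes and macrophages 3 of 5 were higher (Xcl1, Ccl5 and Xcr1; 15.6%) and none was lower (16.9%). Among dendritic classes, 3 of 5 were higher in cDC1 (Ccl3, Ccl5 and Xcr1; 19.9%) and none lower (15.2%), and 3 of 5 were higher in cDC2 (Xcl1, Ccl5 and Xcr1; 19.6%) and none lower (17.6%). In mature dendritic cells 1 of 6 was higher (Ccl5; 18.7%) and 3 were lower (Xcl1, Ccl4 and Ccl1; 16.9%), although the Xcl1 and Ccl1 values there came mostly from the 1 Control cell described above, without which Xcl1 was 9.89 CPM in DOPAC and 8.87 CPM in Control. In plasmacytoid dendritic cells 4 of 4 were higher (Xcl1, Ccl3, Ccl4 and Ccl5), where 25.2% of all genes were, and none was lower (15.9%). These DOPAC values leaned on few cells, since 1 cell held 10 of the 18 Xcl1 UMIs. There 10 of 63 cells held 77.7% of the Ccl3, 68.4% of the Ccl4 and 74.3% of the Ccl5 UMIs. The median log2 ratio of all genes was -0.13 in checkpoint-type cells and 0.11 in plasmacytoid dendritic cells, and between -0.08 and 0.06 in the other 6 classes. The counts include Xcl1 in monocytes and macrophages and Ccl5 in cDC1, which were read as background above. Xcr1 in CD8 T cells, also counted, rested on 76 DOPAC and 10 Control UMIs, 6 of the latter in 1 cell. Ccl3 in cDC1 had thinned shares of 6.33% (2.09 to 14.2) in DOPAC and 3.85% (1.86 to 6.96) in Control. These intervals overlapped each other and those of B cells. They also include members whose ratio interval spanned 1. These were Ccr8 in CD8 T cells (0.3 to 1.37), Xcl1 in cDC2 (0.649 to 3.81) and Ccl1 in mature dendritic cells (0.00685 to 1.69). With so few members these shares are a description only.

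Other genes of these pathways were read against the same shares of all genes, and those named are examples. Of 3 other receptors measured in NK cells, 1 was at least 1.5-fold lower in DOPAC (17.9% of all genes) and none was higher; it was Ccrl2, a chemerin-binding receptor, at 28.4 CPM in DOPAC and 66.5 CPM in Control. In CD8 T cells 17.8% of all genes were higher and 22.1% lower. There 1 of 7 measured NK and T-cell products was at least 1.5-fold higher in DOPAC, Ifng at 186 CPM against 79.95 CPM in Control. Another 4 were at least 1.5-fold lower, among them Csf2 at 1.24 CPM in DOPAC and 10.97 CPM in Control. The list's median log2 ratio was -0.72. In Control, 64 Csf2 UMIs came from 8 of the 16 CD8 T cells with a Ccl1 UMI. Without Ccl1-bearing cells Csf2 stood at 1.06 CPM in DOPAC (20 UMIs) and 0.357 CPM in Control (2 UMIs). In NK cells 3 of 5 products were lower (17.9% of all genes) and none was higher (11.3%), with a median of -0.63 and Ifng at 114.5 CPM in DOPAC and 167 CPM in Control.

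Activation-induced regulators, factors that antigen or receptor signals switch on, came next. Of 8 measured in NK cells, 4 were at least 1.5-fold lower in DOPAC (17.9% of all genes were) and none was higher (11.3%), with a median log2 ratio of -0.62. Nr4a1 stood at 138 CPM in DOPAC and 277 CPM in Control NK cells, Nfatc1 at 305 and 511 CPM, and Nfkbid at 47.6 and 136 CPM. In CD8 T cells 3 of 8 were higher (17.8% of all genes) and 2 lower (22.1%), with a median of -0.09, and Nr4a2 stood at 683 CPM in DOPAC and 289 CPM in Control. In monocytes and macrophages 3 of 8 were higher (15.6% of all genes) and 1 lower (16.9%), with a median of 0.32, and Egr1 stood at 436 CPM in DOPAC and 225 CPM in Control. Of 5 regulators named for Ccl5 or effector fate, read against the same shares, 2 were higher in DOPAC CD8 T cells (Runx3 at 684 CPM in DOPAC and 297 CPM in Control, Prdm1 at 38.7 and 14.96 CPM) and 1 was lower (Klf13, a factor that activates Ccl5, at 174.5 and 295 CPM). In NK cells 2 of 5 were lower, Klf13 at 244 and 404.5 CPM and Tbx21, which encodes T-bet, at 169 and 290 CPM. In cDC1, 1 of 6 cDC1 genes outside the gate was higher, which is near the 19.9% of all genes, with a list median of -0.34; it was the adhesion gene Cadm1, at 734 CPM in DOPAC and 461.5 CPM in Control. Irf8 and Batf3, the factors of cDC1 identity, stood at 680 and 94.2 CPM in DOPAC cDC1, against 969 and 129 CPM in Control cDC1.

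The genes whose level over cell classes was most like each member were taken by Pearson's r of log2(CPM + 10) over 21 class-by-library profiles, which share libraries and depth. For Xcl1 these were Sult2b1 (0.94), Ctsw (0.93) and Eomes (0.92). Ccl3 and Ccl4 were each other's most alike gene (0.91), followed by Rgl1 and Cd300lf for Ccl3 and Abr and Lair1 for Ccl4. For Ccl5 they were AW112010 (0.92), Serpinb6b (0.91) and Serpinb9 (0.90), for Xcr1 Plpp1 (0.93), Gpr141b (0.90) and Chsy3 (0.88), and for Ccr8 Itgb8 (0.96), Sdf4 (0.96) and Izumo1r (0.95). Ccl1 had no close match, with Unc13b (0.76), Polr2b (0.73) and Ikzf5 (0.73), all of which, like Ccl1, were highest in DOPAC CD4 T cells, where 3 cells held all Ccl1 UMIs.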

How the data were processed

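Per the file headers, the authors deposited raw UMI counts for each gene and barcode, not normalized, from Cell Ranger 7.0.1; the build was GRCm38 per the submitters' processing notes, and the annotation release is not given in the sources used here. The DOPAC library held 10777 barcodes with 47769958 UMIs and the Control library 9629 barcodes with 100938364 UMIs. Filters of 500 or more UMIs, 200 or more genes and a mitochondrial share of up to 10% left 10095 DOPAC and 8444 Control cells. Scrublet (scanpy 1.11.5) scored doublets, with 0.8% expected per 1000 cells. The automatic threshold removed 339 Control cells (4.02%); in the DOPAC library it marked 0.0%, under the lowest accepted share of 0.5%, so the 815 highest-scoring cells (8.07%) were removed.

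A cell joined a class with at least 2 UMIs of its marker list and at least 3 times the UMIs of each other list, over 11 lists of 45 genes. T cells were split by Cd8a or Cd8b1, Cd4 and Foxp3 UMIs. UMIs were summed per class and library and given as CPM with exact Poisson intervals, shares of cells with exact Clopper-Pearson intervals, and ratios with a conditional exact binomial interval. Before a log2 ratio (DOPAC over Control), 1 count was added to both sums. Intervals cover counting error only, and with 1 library per group no test between treatments was made. For equal depth, cells were thinned to 1000 UMIs, which left out 364 DOPAC and 100 Control cells. The count of genes past the fold was tested on simulated class sums. Thinning was checked on cells of the Control library and the ratio interval on a fixed pair of counts. Named genes were the 7 members, 5 pathway lists of 31 genes and, for each member, the 3 genes most like it over classes with at least 50 cells, among genes reaching 100 CPM (50 CPM for Ccl1, Ccr8 and Xcr1) that no gate used; of the pathway lists, examples chosen after their values were seen are named beside the count of each list. Some genes of these lists are not reported here. The members and lists were chosen with earlier results of these data known. Alternatives were other gates, thinning, filters, doublets, scalings, counts added and cells left out. Python 3.11.15, numpy 2.4.6, scipy 1.17.1, pandas 2.3.3 and matplotlib 3.10.9 were used.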

Additional observations from a re-analysis of the deposited data

How the results depend on the processing

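Of 121 alternative log2 ratios of DOPAC over Control, 71 moved by less than the counting interval of the main value, 49 moved further and 1, of at least 1.5-fold, turned round. This was Ccr8 in regulatory T cells, 1.02 in the main reading and -0.063 with levels from cells thinned to 1000 UMIs. In all 6 changed sign; the other 5 were small in the main reading, namely Xcl1 in CD8 T cells under the settings below that give 0.030 and 0.12, and Ccl3 in monocytes and macrophages (-0.024), at 0.087 with thinned gates, 0.0018 with doublets kept and 0.0092 relative to the median of all genes. Xcl1 in CD8 T cells (-0.24) was -0.42 when the largest list took the cell, -0.94 with gates on thinned cells, 0.030 with thinned levels and -1.12 without naive-type cells. Ccl4 in CD8 T cells (1.00) was 0.86, 0.55, 1.27 and 0.50 under these 4 settings, and 0.78 with doublets kept. Ccl5 in CD8 T cells (0.76) was 0.35 with thinned gates, 0.87 with thinned levels, 0.30 without naive-type cells, 0.81 with at most 5% mitochondrial UMIs and 0.80 relative to the median of all genes. In an alternative chosen after seeing the data, CD8 T cells without a Ccl1 UMI gave 0.12 for Xcl1, 2.05 for Ccl3, 1.08 for Ccl4 and 0.69 for Ccl5. In NK cells Xcl1 (-0.81) was -0.91 with thinned levels, -0.70 without mitochondrial, ribosomal and haemoglobin genes and -0.72 relative to the median of all genes, and Ccl3 (-1.41) was -1.27 with thinned gates and -1.25 with thinned levels. Ccl4 in monocytes and macrophages (0.13) was 0.22, 0.068, 0.11 and 0.17 with thinned gates, thinned levels, those gene classes left out and the median as reference. Xcr1 in cDC1 (1.14) was 0.17 with thinned gates and 0.41 with thinned levels. With no minimum of UMIs, genes at least 1.5-fold apart numbered 10480 in CD8 T, 10340 in checkpoint-type, 7061 in NK, 10323 in monocytes and macrophages, 8518 in cDC1, 9076 in cDC2, 8904 in mature and 9925 in plasmacytoid dendritic cells, against 5022, 4281, 3098, 4331, 3331, 3491, 3128 and 3839 with it. Levels without the highest cell, also chosen after seeing the data, stand in the report. The cause of these moves was not tested, except that leaving out the UMI minimum adds genes with few counts. No paired analysis was possible because each group was 1 library.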
